A study of Mus musculus with 6 samples.

Results

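Primary granules, also called azurophil granules, are the first granules to form in developing neutrophils, and 8 genes tied to them were followed here through 6 RNA-seq libraries of mouse leukemia cells. The genes were taken by name: Mpo, Elane, Prtn3, Ctsg, Prss57, Ms4a3, Nkg7 and Serpinb1a. All 8 of 8 were found among the 49585 gene IDs of the count table, and all 8 were among the 15812 genes with enough counts to be tested. Every library came from KMT2A-MLLT3 leukemia cells, an acute myeloid leukemia driven by a fusion of the KMT2A and MLLT3 genes, grown with fetal bovine serum, interleukin 3, interleukin 6 and stem cell factor. Marrow of moribund mice was transduced with DOT1L, a histone H3 lysine methyltransferase, cells with high and with low expression were sorted, and RNA was taken 3 days after the sort. The labels were 3, NT, DOT1L High and DOT1L Low, and each had 1 library in each of 2 leukemias, K3117 and K3174. The labels do not spell out NT, and they do not say whether its cells were transduced or sorted. The K numbers come from the library titles and are taken as 1 leukemia each, and nothing says that the libraries came from separate mice or cultures. The p-values rest on a fitted spread between these libraries, which may in part be technical. For each gene that spread is drawn mostly from other genes, so it can be smaller than the gene's own difference between the leukemias.

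Total counts were between 22908445 and 33265848 a library, and each pair of libraries differed by more than sampling noise. Levels are given as CPM, counts scaled to a common library size with TMM factors, in the order NT, Low, High. Counts of Dot1l itself, in CPM, were 128, 184 and 150 in K3117 and 158, 152 and 136 in K3174, and it passed the test in no comparison of labels. High was below Low in both leukemias, so these counts do not bear out the labels. Whether transcripts of the transduced DOT1L are counted under this mouse gene ID was not tested. Leukemia cell genes were present in every library and moved with the label too. In High against NT the fusion targets Hoxa9 (154 CPM or more, log2 -0.75, adjusted p = 0.000762) and Meis1 (38.9 CPM or more, log2 -1.18, adjusted p = 4.7e-05) were lower, and Kit, the stem cell factor receptor gene, was higher (log2 0.68, adjusted p = 0.00141). Ptprc, the leukocyte surface phosphatase CD45, was at 247 CPM or more and was not called. Genes of other cell types were measured as lists. Of all genes tested, 10.0% were higher and 7.32% lower in High than in NT. Late neutrophil genes summed to 78.7 to 212 CPM in NT, 191 to 1408 in Low and 1722 to 7499 in High, with 12 of 13 higher in High than in NT. Eosinophil genes summed to 12.5 to 92.7, 58.9 to 151 and 439 to 1076 CPM, with 7 of 8 tested genes higher in High. Mast cell and basophil genes summed to 120 to 197, 185 to 275 and 463 to 815 CPM, with 5 of 8 tested genes higher in High. In Low against NT 1 of these 8, Hdc, was higher and 1, Prss34, lower, against 2.05% and 1.29% of all genes tested. Their median log2 fold change in Low was -0.43. Hdc alone was at 22.4 and 44.1 CPM in NT and at 74.2 and 173 CPM in Low. Monocyte genes summed to 1007 to 1065, 1100 to 1103 and 1388 to 1516 CPM, with 4 of 10 higher and 4 lower. NK and T cell genes, which mark the other cells known for Nkg7, summed to at most 2.08 CPM, with Ncr1, Gzma, Cd3e and Cd8a at 0 in all libraries. B cell genes summed to at most 17.2 CPM with Ms4a1 at 0, erythroid genes to at most 18.3 CPM, and stromal and endothelial genes to at most 230 CPM with Col1a2 and Cxcl12 at 0. The neutrophil, eosinophil and mast cell lists moved with the High label, as did most of the genes described here, and their part in the results was not tested. In bulk RNA, more cells of a type and more RNA per cell cannot be told apart.

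Primary granules hold serine proteases and a peroxidase that kill and digest microbes after fusion with the phagosome. Their genes are switched on in granulocyte-monocyte progenitors and promyelocytes, before the genes of secondary granules, and are shut off again as the cell matures. PU.1, C/EBP, RUNX and MYB factors are known to act at their promoters. The proteases are made as inactive precursors that cathepsin C trims in the granule, and cytosolic serpins hold any escaped enzyme in check.

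Promoter sequences were in the RefSeq table (GRCm38.p6) for 6 of the 8 genes, and 5 motifs were searched on both strands of the 250 bases before the RefSeq start. The ETS motif GAGGAA, which PU.1 can bind, was in the windows of Elane, Prtn3, Mpo and Ctsg, 4 of 6, against 23.3% of all 32851 windows. The C/EBP motif TTGCNNCAA was in the window of Ms4a3 alone, against 1.74% of all windows. The MYB motif AACNG, which can share its AA with the end of GAGGAA, was in 5 of 6 windows, all but that of Ms4a3, and in 74.2% of all windows. The RUNX motif TGTGGT was in those of Ctsg and Nkg7, against 14.0%, and TATAAA in that of Ctsg, against 12.4%. The stretches below are shown because the same ETS letters stand before 3 genes that were higher in Low and High than in NT and before Ctsg, which did not pass the test, and because Elane and Prtn3, which lie side by side on chromosome 10, hold the same MYB letters at a like distance. Each runs 5′ to 3′ on the strand of its gene, with the motif in capitals. A match is a description of letters and not a site.
Elane, ETS, 85 bases upstream, chr10:79886215-79886244, plus strand: tcgtgtcccaggGAGGAAgtagggctgtgg
Prtn3, ETS, 95 bases upstream, chr10:79879560-79879589, plus strand: ccaaactggaagGAGGAAgtgggacccaca
Mpo, ETS, 224 bases upstream, chr11:87793548-87793577, plus strand: tgtggagagagaGAGGAAgttgcctttgtc
Ctsg, ETS, 216 bases upstream, chr14:56102773-56102802, minus strand: ctcccagaaggaGAGGAAgaaaaggaagta
Elane, MYB, 50 bases upstream, chr10:79886250-79886279, plus strand: atggggcaatacAACGGcctctggttccag
Prtn3, MYB, 55 bases upstream, chr10:79879600-79879629, plus strand: tagccactgttcAACGGctcccggcagagc
Ms4a3, C/EBP, 140 bases upstream, chr19:11640972-11641001, minus strand: cttttatttcTTGCTCCAAtaatgtgtgaa
The RefSeq start of Elane lies 65 bases inside the GENCODE gene, so its MYB letters fall within the GENCODE gene and its ETS letters just before it. The RefSeq start of Prtn3 also lies inside its GENCODE gene, as do both of its stretches. None of the matches printed shares a base with a match of another motif.

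The question of the design is how the cells sorted for high or low DOT1L differ from NT. Of the 8 genes, 6 were higher in High than in NT: Mpo, Elane, Prtn3, Prss57, Ms4a3 and Nkg7. Ctsg and Serpinb1a did not pass the test. Across all genes tested, 10.0% were called higher and 7.32% lower (edgeR quasi-likelihood test, leukemia as block, Benjamini-Hochberg adjusted p under 0.05 over 15812 genes). The median log2 fold change was 1.81 over the 8 genes and -0.01 over all genes tested. With TMM scaling none of the 8 was called lower by edgeR, nor was any by DESeq2, and 1, Serpinb1a, was lower at an unadjusted p of 0.0300 and was called lower by edgeR under other scalings. The same 6 genes had both High libraries above both NT libraries, which held for 25.3% of all genes tested.

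**Figure D1:**
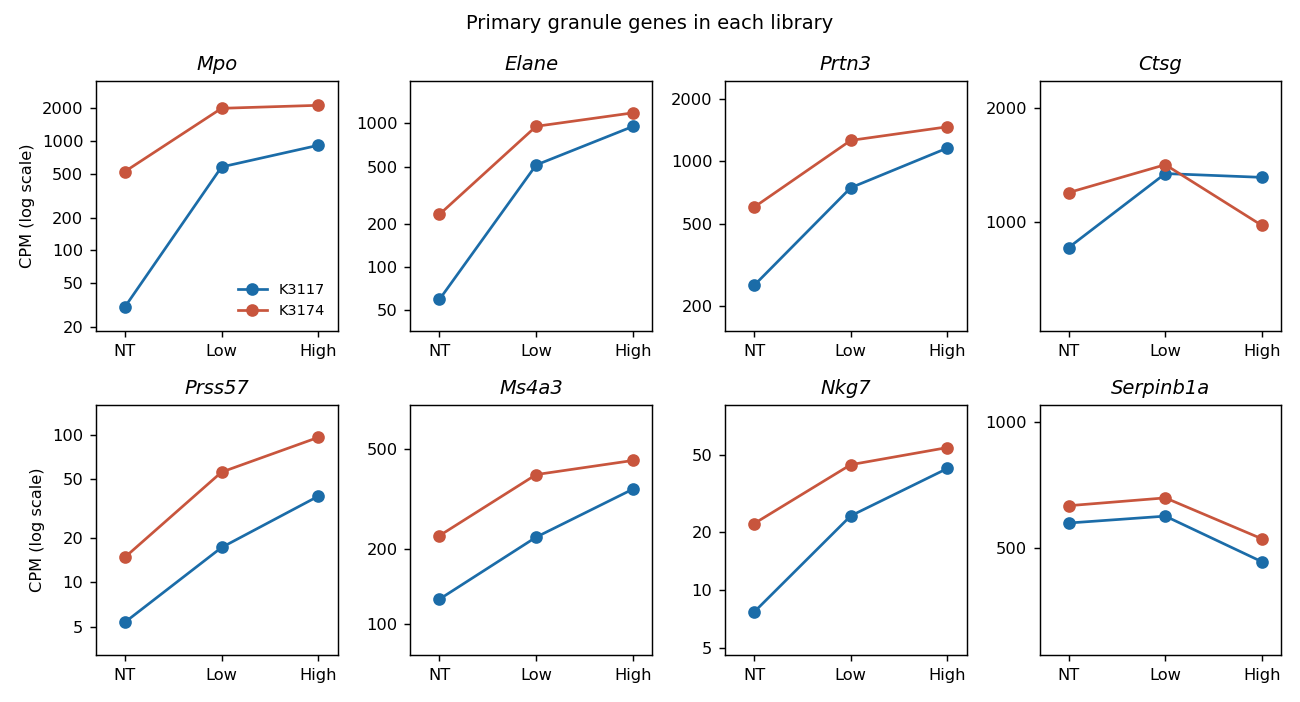
CPM of each gene in each library on a log axis, with NT, Low and High along the x axis and 1 line for each leukemia. In 6 panels both lines climb from NT to Low to High, while Ctsg and Serpinb1a are highest in Low in both leukemias.

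Mpo (chr11:87793581-87804413, plus strand) encodes myeloperoxidase, the heme enzyme that makes hypochlorous acid from hydrogen peroxide and chloride. It was at 30.5, 579 and 913 CPM in K3117 and at 526, 1989 and 2118 CPM in K3174. Both NT libraries lay below every DOT1L library, but the NT library of K3174 came close to the Low library of K3117. Mpo was 9.69-fold higher in High than in NT (log2 3.28 ± 0.52 SE, adjusted p = 0.00101 by edgeR) and 7.09-fold higher in Low (log2 2.83 ± 0.50, adjusted p = 0.0104). High and Low were not told apart by the test (log2 0.45, 95% interval -0.55 to 1.45, adjusted p = 0.773). The size of the rise differed by leukemia, at 30.0-fold from NT to High in K3117 and 4.03-fold in K3174. Both lie outside the 95% interval of the fitted fold, 4.40 to 21.3. The fitted values moved with the NT library left out: without that of K3117 the log2 fold change from NT was 2.16 for High and 1.79 for Low, and without that of K3174 it was 4.77 and 4.40. DESeq2 did not call Mpo in Low against NT (adjusted p = 0.225). An antisense gene inside Mpo, Gm11505, was at 0.202 CPM or less.

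Elane (chr10:79886247-79888215, plus strand) encodes neutrophil elastase. It was at 59.4, 514 and 953 CPM in K3117 and at 233, 955 and 1185 CPM in K3174. The NT libraries were lowest, and the ranges of Low and High overlapped by a little, with the Low library of K3174 at nearly the level of the High library of K3117. The rise from NT was 8.85-fold in High (log2 3.15 ± 0.30, adjusted p = 2.8e-05 by edgeR) and 5.66-fold in Low (log2 2.50 ± 0.29, adjusted p = 0.000839). Within a leukemia the rise from NT to High was 16.0-fold in K3117 and 5.10-fold in K3174. Without the NT library of K3117 the log2 fold change from NT was 2.50 for High and 1.91 for Low, and without that of K3174 it was 3.87 and 3.27. High against Low did not pass (log2 0.64, interval 0.05 to 1.24, adjusted p = 0.271).

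Prtn3 (chr10:79874476-79883174, plus strand) encodes proteinase 3, the elastase-like protease that is the autoantigen of granulomatosis with polyangiitis. It was at 251, 746 and 1162 CPM in K3117 and at 600, 1265 and 1473 CPM in K3174. NT again lay below Low and High in all libraries. Prtn3 was 3.37-fold higher in High (log2 1.75 ± 0.19, adjusted p = 5.8e-05) and 2.47-fold higher in Low (log2 1.31 ± 0.18, adjusted p = 0.00238). Its annotated first 159 bases overlap Plppr3 on the other strand, and the use of strand in counting is not given in the sources, so reads of that stretch cannot be told apart. Plppr3 was at 63.4 to 145 CPM.

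Prss57 (chr10:79781474-79790961, minus strand) encodes a granule serine protease that cleaves after arginine. It was at 5.35, 17.2 and 38.4 CPM in K3117 and 14.8, 56.0 and 96.5 CPM in K3174. The High library stood above Low and Low above NT in each leukemia, by 2.23-fold and 3.22-fold in K3117 and by 1.72-fold and 3.79-fold in K3174. It was 6.84-fold higher in High than in NT (log2 2.77 ± 0.15, adjusted p = 6.6e-07), 3.51-fold higher in Low (log2 1.81 ± 0.15, adjusted p = 0.000178) and 1.95-fold higher in High than in Low (log2 0.96 ± 0.14, adjusted p = 0.00186). Its last 1157 bases overlap Fstl3 on the other strand, a gene at 1.45 CPM or less.

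Ctsg (chr14:56099881-56102574, minus strand) encodes cathepsin G, a protease with chymotrypsin-like cutting. It was at 854, 1342 and 1311 CPM in K3117 and at 1195, 1417 and 977 CPM in K3174. Low was the highest label in both leukemias, and High was above NT in K3117 (1.54-fold) and below it in K3174 (0.818 of its level). Neither comparison with NT passed: log2 0.17 (interval -0.23 to 0.56, adjusted p = 0.615) for High and 0.43 (interval 0.04 to 0.83, adjusted p = 0.306) for Low. Both intervals lie below the whole interval of Prss57, Elane, Prtn3 and Mpo in the same comparison. The call depended on the libraries and the filter: without the NT library of K3174 Ctsg was called higher in High (log2 0.50, adjusted p = 0.0120) and in Low (log2 0.79, adjusted p = 0.000770), and it was also called in Low without either High library (adjusted p = 0.0469 and 0.0437) and with every counted gene tested (adjusted p = 0.00565).

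**Figure D2:**
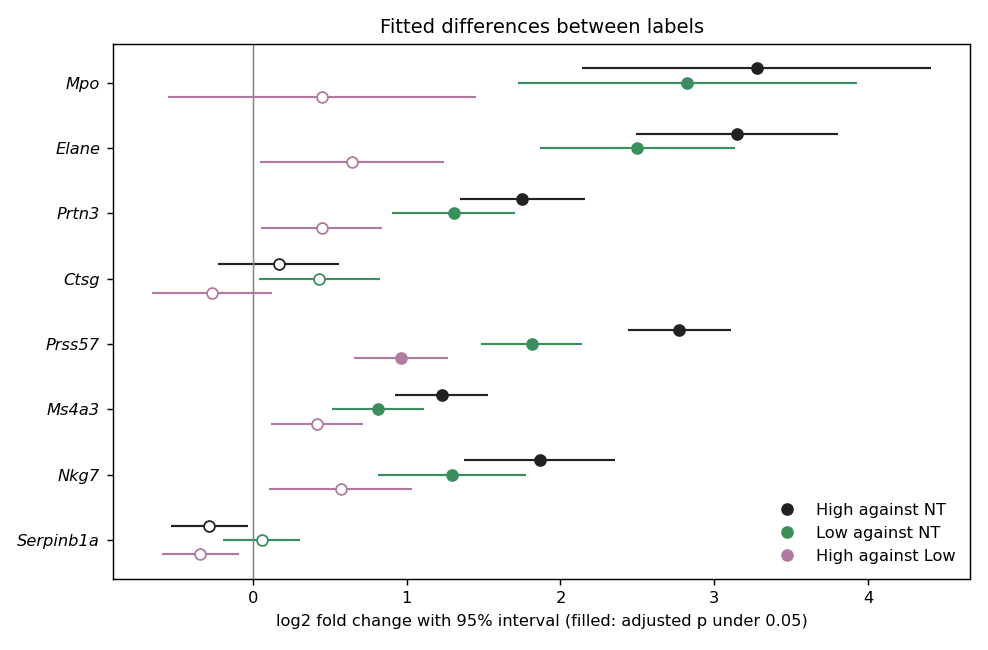
Fitted log2 fold changes of the 8 genes for High against NT, Low against NT and High against Low, with 95% intervals from the fit to all 6 libraries; filled points passed an adjusted p of 0.05. The 6 genes called in High are also called in Low, and of the differences between High and Low only that of Prss57 is filled.

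Ms4a3 (chr19:11629496-11640851, minus strand) encodes a membrane protein that marks granulocyte-monocyte progenitors and their progeny. It was at 126, 222 and 345 CPM in K3117 and at 225, 394 and 448 CPM in K3174. The Low library of K3117 lay just under the NT library of K3174, so Low and NT overlapped, though each leukemia rose from NT to Low to High. The fitted rise was 2.34-fold in High (log2 1.23 ± 0.14, adjusted p = 9.0e-05) and 1.76-fold in Low (log2 0.81 ± 0.14, adjusted p = 0.00752). Without the Low library of K3174 the call in Low was lost (log2 0.70, adjusted p = 0.135).

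Nkg7 (chr7:43437073-43438249, plus strand) encodes a membrane protein best known from the cytotoxic granules of NK and T cells. It was at 7.70, 24.3 and 42.7 CPM in K3117 and at 22.1, 44.6 and 54.8 CPM in K3174. NT did not overlap Low or High, although the NT library of K3174 nearly reached the Low library of K3117. It was 3.65-fold higher in High (log2 1.87 ± 0.22, adjusted p = 0.000138) and 2.45-fold higher in Low (log2 1.29 ± 0.22, adjusted p = 0.00806). NK and T cell genes were at 2.08 CPM or less in sum in every library. Of the 11 listed, 2 had enough counts to be tested, and neither was called between labels. Their part in the Nkg7 values was not tested.

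Serpinb1a (chr13:32842092-32851185, minus strand) encodes a cytosolic serpin that inhibits elastase, proteinase 3 and cathepsin G. It was at 574, 596 and 464 CPM in K3117 and at 632, 659 and 527 CPM in K3174. The libraries kept within a narrow range, with both High libraries below all others. High against NT gave log2 -0.28 ± 0.11 (interval -0.54 to -0.03, adjusted p = 0.121) and Low against NT 0.06 ± 0.11 (adjusted p = 0.948). The call rests on the scaling: with library sizes alone Serpinb1a was called lower in High (log2 -0.34, adjusted p = 0.050, just under the threshold), and with upper quartile factors as well (log2 -0.38, adjusted p = 0.0354). Its near copies Serpinb1b and Serpinb1c were at 0.769 and 0.0445 CPM at most.

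In Low against NT, 6 of the 8 genes were called higher, the ones called in High, against 2.05% of all genes higher and 1.29% lower. The High and Low comparisons share the NT libraries, so the match between them is not independent. The median log2 fold change was 1.30 over the 8 genes. By plain order, 6 genes had both Low libraries above both NT libraries, against 15.8% of all genes tested, but these were not quite the called ones: Ctsg was among them and Ms4a3 was not. None of the 8 was called lower by edgeR or DESeq2, and 0 were lower at an unadjusted p under 0.05.

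In High against Low, 1 of the 8 genes was called higher, Prss57, against 4.12% of all genes higher and 1.35% lower. The median log2 difference over the 8 genes was 0.45, and 5 further genes, Elane, Prtn3, Ms4a3, Nkg7 and Mpo, had positive values of 0.42 to 0.64 that did not pass. The smallest adjusted p among these was 0.123, for Ms4a3. Ctsg (log2 -0.27) and Serpinb1a (log2 -0.34, interval -0.59 to -0.09) were lower in both High libraries than in both Low libraries, which 17.3% of all genes tested showed, and neither passed the test, though Serpinb1a had an unadjusted p of 0.0120. Without the Low library of K3117 the call of Prss57 was lost (log2 0.80, adjusted p = 0.0535). Without the High library of K3174 6 genes were called higher (Mpo at log2 1.12 and Elane at 1.13 among them) and the median over the 8 was 0.86. Without that of K3117 Prss57 was called higher and Ctsg lower (log2 -0.65, adjusted p = 0.0278), and the median was 0.05. With the NT library of either leukemia left out 6 were called higher and Serpinb1a lower.

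The leukemia block was needed for every call among the 8 genes in the label comparisons. Without it 0 of the 8 were called in High against NT, by the same edgeR test, with adjusted p from 0.0743 for Elane to 0.342 for Mpo among the 6 genes called with it, and 0 in Low against NT or in High against Low. At an unadjusted p under 0.05 that fit had 5, 3 and 1 of the 8.

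The leukemias themselves differed in these genes. With the labels held in the model, 6 of the 8 were higher in K3174 than in K3117, again all but Ctsg and Serpinb1a, against 3.05% of all genes. Mpo was 4.92-fold higher (log2 2.30 ± 0.41, adjusted p = 0.00380), Prss57 2.83-fold (log2 1.50 ± 0.12, adjusted p = 1.1e-05), Elane 2.07-fold, Nkg7 1.86-fold, Prtn3 1.73-fold and Ms4a3 1.60-fold. Ctsg (log2 0.05, adjusted p = 0.923) and Serpinb1a (log2 0.15, adjusted p = 0.437) did not pass. DESeq2 called 4 of the 6, without Mpo (adjusted p = 0.146) and Elane (adjusted p = 0.176). The values of Mpo and Elane lean on NT: without the NT library of K3117 they fell to log2 1.50 and 0.61.

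**Figure D3:**
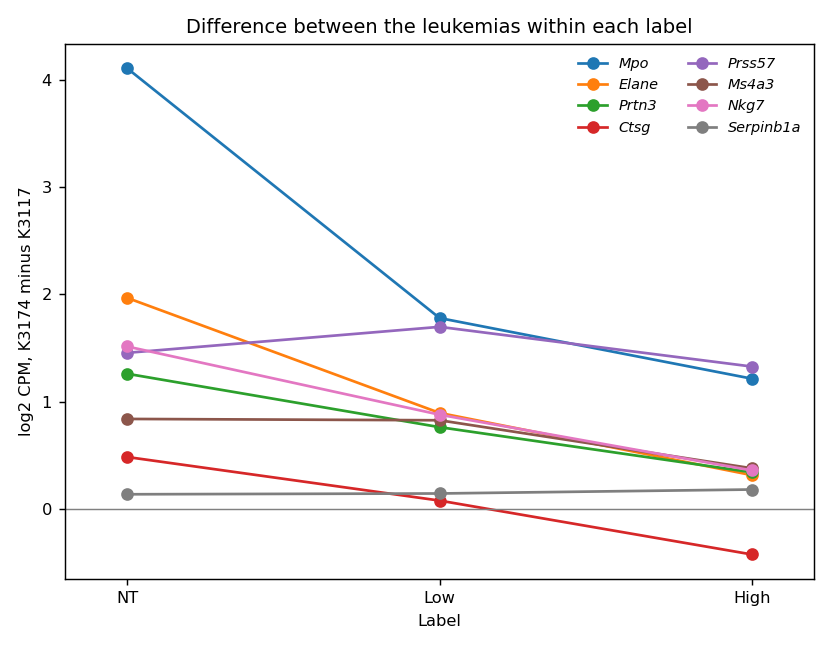
The log2 CPM of K3174 minus that of K3117 within each label, 1 line for each gene, 1 library a leukemia and label. The Mpo line drops from 4.11 in NT to 1.21 in High, and the lines of Elane, Prtn3, Nkg7 and Ms4a3 end between 0.32 and 0.38.

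The gap between leukemias was widest in NT for 6 of the 8 genes, all but Prss57 and Serpinb1a. For 5 of these it was smaller in Low and smaller again in High, and for Ctsg it changed sign in High. Mpo was 17.3-fold higher in K3174 in NT, 3.43-fold in Low and 2.32-fold in High. Elane went from 3.91-fold to 1.86-fold and 1.24-fold, Nkg7 from 2.87-fold to 1.84-fold and 1.28-fold, and Prtn3 from 2.40-fold to 1.70-fold and 1.27-fold. Ms4a3 went from 1.79-fold to 1.77-fold and 1.30-fold, and Ctsg from 1.40-fold to 1.06-fold and then to 0.745 of the K3117 level. Prss57 kept its gap, at 2.76-fold, 3.25-fold and 2.51-fold, as did Serpinb1a, at 1.10-fold, 1.10-fold and 1.13-fold. Over the 8 genes the median absolute gap was log2 1.36 in NT, 0.85 in Low and 0.37 in High, while over all 15812 genes tested it was 0.24, 0.24 and 0.23. With 1 library for each leukemia and label the narrowing has no replicate and was not tested.

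**Figure D4:**
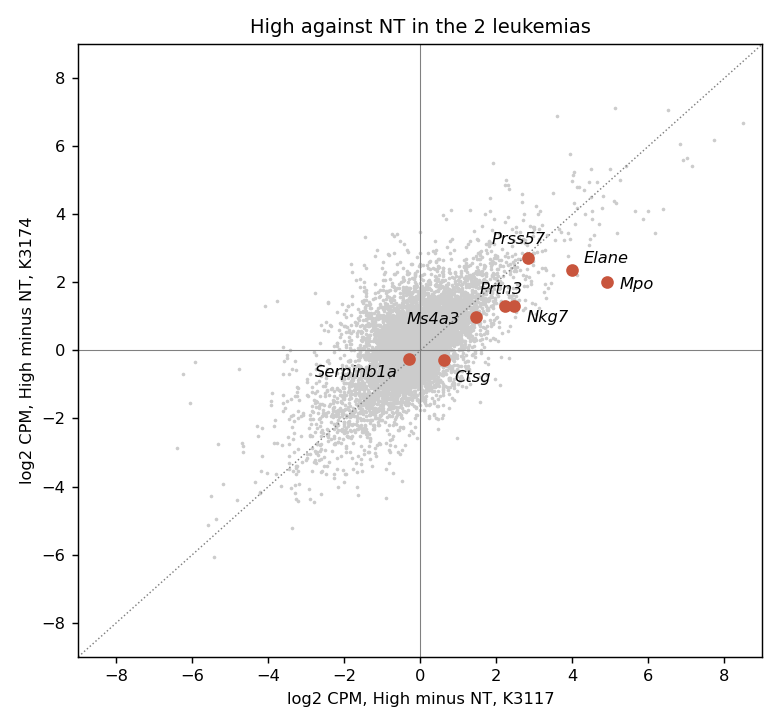
The log2 CPM of High minus NT in K3117 (x axis) and K3174 (y axis), with each tested gene in grey, the 8 genes in red and a dotted line where both leukemias are equal. Mpo and Elane lie to the right of the line, Prss57 lies close to it, and Ctsg lies right of 0 in K3117 and below 0 in K3174.

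Compared per length, as CPM per kb of annotated exon, Ctsg led in NT at a mean of 992, followed by Serpinb1a at 262, Prtn3 at 246, Elane at 148, Ms4a3 at 93.2, Mpo at 81.3, Nkg7 at 16.3 and Prss57 at 3.54. From Serpinb1a to Nkg7 the neighbours in this order overlapped between libraries, with Mpo at 8.90 in K3117 and 154 in K3174. In High the order on the same scale was Ctsg at 1108, Elane at 1086, Prtn3 at 761, Mpo at 443, Serpinb1a at 215, Ms4a3 at 211, Nkg7 at 53.3 and Prss57 at 23.7. The ranges of Ctsg and Elane now overlapped, as did those of Serpinb1a and Ms4a3. The length takes in all annotated exons of a gene, and which of them these cells use was not tested. The order between genes therefore depends on the annotation. Before division by length, the means in High were 1516 CPM for Mpo, 1317 for Prtn3, 1144 for Ctsg and 1069 for Elane.

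The makeup of the counts of these 8 genes shifted with their levels. Together the 8 genes took 0.197%, 0.408% and 0.508% of all counts in K3117 and 0.344%, 0.680% and 0.675% in K3174. Within them, the share of Ctsg went from 44.8% in NT to 33.2% in Low and 25.1% in High in K3117, and from 34.7% to 20.9% and 14.2% in K3174. Serpinb1a, the inhibitor, went from 30.1% to 14.8% and 8.88% in K3117 and from 18.3% to 9.72% and 7.66% in K3174. Mpo went the other way, from 1.60% to 14.3% and 17.5% in K3117 and from 15.3% to 29.3% and 30.8% in K3174. The shares depend on each other, so a share can fall without a fall in level. From NT to High, Ctsg itself went from 854 to 1311 CPM in K3117 and from 1195 to 977 CPM in K3174.

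Prss57, Prtn3 and Elane form a gene cluster on chromosome 10, with starts 83.5 kb and 11.8 kb apart, and the mouse Dot1l gene lies 0.869 Mb from the Elane start on the same chromosome. Within 0.25 Mb of the 3 starts there were 35 other protein-coding genes, of which 27 were tested. In High against NT, 5 of these were higher and 1 lower, against 10.0% higher and 7.32% lower of all genes tested. Their median log2 fold change was 0.00, against 1.75 to 3.15 for the 3 proteases. The higher ones were Palm (log2 1.34), Cnn2 (1.01), Arid3a (0.87), Plppr3 (0.81) and Abca7 (0.63), and the lower one was Polr2e (-0.47). Without the High library of K3174 Abca7 (adjusted p = 0.110) and Polr2e (adjusted p = 0.467) were no longer called, and Polr2e was also lost without the NT library of K3174 (log2 -0.20, adjusted p = 0.348).

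**Figure D5:**
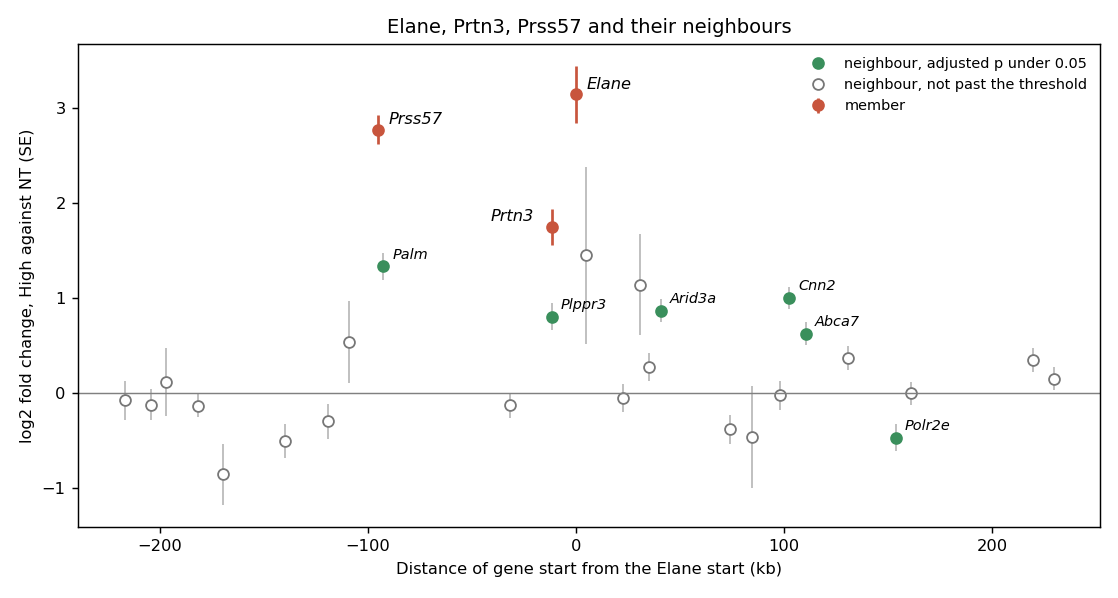
Log2 fold change of High against NT, with its SE, for tested genes within 0.25 Mb of the Elane start, by distance in kb from that start. Elane, Prss57 and Prtn3 (red) are the 3 highest points, and most of the 26 tested neighbours lie near 0.

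The other genes had neighbourhoods of their own, to be set against the same 10.0% higher and 7.32% lower of all genes tested. Around Mpo 3 of 8 tested neighbours were higher in High: Mtmr4 (log2 0.46), Tspoap1 (log2 0.71) and Epx. The first pair was not called without the High library of K3174 (adjusted p = 0.0827 and 0.351). Epx is the eosinophil peroxidase gene, its start is 82.0 kb from that of Mpo, and it rose by log2 4.65 ± 0.39 (adjusted p = 1.3e-05). Lpo, the lactoperoxidase gene beside them, was below 1 CPM and did not pass (log2 2.09, adjusted p = 0.0540). Around Ctsg, in the locus that also holds granzymes and mast cell proteases, 3 of 7 were higher (Cbln3, Cma1 and Mcpt8) and 1 lower (Nynrin). Around Nkg7, next to genes of the Siglec family, 7 of 13 were higher, and around Ms4a3 3 of 9 were higher (Ms4a2, Ms4a6d and Stx3) and 1 lower (Mrpl16). Around Serpinb1a 2 of 4 were lower, the serpin genes Serpinb6b (log2 -3.89 ± 0.56) and Serpinb9 (log2 -1.99, adjusted p = 0.000138).

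Of 6 other genes of primary granule contents, 2 were higher in High than in NT, with a median log2 fold change of 0.90. That median lies between Plac8 (0.06) and Lyz1, a gene with 25 counts or fewer (1.73 ± 0.92 SE), and neither was called. Of all genes tested, 10.0% were higher and 7.32% lower in High than in NT, shares that also apply to the list counts below. Fcnb, a ficolin stored in these granules, was at 0.0902 (3 counts), 0.929 and 4.40 CPM in K3117 and at 3.94, 32.6 and 92.4 CPM in K3174, a rise of log2 4.74 ± 0.25 (adjusted p = 6.6e-07). Lyz2, lysozyme, which monocytes and macrophages also make, was at 597, 471 and 1655 CPM in K3117 and at 127, 194 and 862 CPM in K3174. It rose in High (log2 2.09 ± 0.24, adjusted p = 0.000106) and was not called in Low (log2 0.09, adjusted p = 0.969). The other 4 did not pass: Gusb, the lysosomal beta-glucuronidase (log2 -0.23), Plac8 (log2 0.06), and Bpi and Lyz1, which stayed at or below 1.11 CPM. In Low 1 of 6 was called higher, Fcnb, against 2.05% of all genes tested, and in High against Low 2, against 4.12%.

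Of 9 genes for processing and storage, 3 were higher in High, with a median log2 fold change of 0.21. Lyst, which governs granule size and is lost in Chediak-Higashi syndrome, rose by log2 1.85 ± 0.19 (adjusted p = 4.7e-05). Cd63, a membrane protein of primary granules, rose by 0.97 ± 0.12 (adjusted p = 0.000132). Ctsc, the cathepsin C that activates the proteases, rose by 0.67 ± 0.11 (adjusted p = 0.00171). Ctsc was at 184, 157 and 291 CPM in K3117 and 155, 148 and 248 CPM in K3174, with Low not called against NT (log2 -0.15, adjusted p = 0.755) and High above Low (log2 0.81, adjusted p = 0.00158). Srgn, the proteoglycan that packs the enzymes (log2 0.26, adjusted p = 0.170), Calr and Canx, chaperones of myeloperoxidase folding (log2 0.05 and 0.09), and Hax1, a gene mutated in severe congenital neutropenia (log2 -0.26), did not pass.

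Of 7 genes of granule release, 4 were higher in High, by small steps: Stx11 (log2 0.85), Unc13d (0.67), Snap23 (0.41) and Stxbp2 (0.39). The SNARE and priming proteins they encode bring granules to the membrane. None of the 4 was called without the High library of K3174 or without the leukemia term. Snap23, just under the threshold (adjusted p = 0.0497 by edgeR), and Stxbp2 were also lost under library sizes alone (adjusted p = 0.0964 and 0.0592) and upper quartile factors (0.122 and 0.0903). Both were lost as well without the Low library of either leukemia or the High library of K3117. Vamp8, Rab27a and Vamp2 did not pass (log2 0.09, 0.16 and 0.37).

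Of 14 further protease inhibitors, 7 had no count in any library, the liver serpins Serpina1a to Serpina1e among them, and 6 were tested. Cst7, cystatin F, which restrains cathepsin C, was the 1 called higher in High (log2 1.26 ± 0.12, adjusted p = 2.7e-05) and was also called in Low (log2 0.85, adjusted p = 0.00233). It was at 37.5, 65.8 and 90.6 CPM in K3117 and at 46.6, 86.3 and 111 CPM in K3174. Slpi, the secreted inhibitor of elastase and cathepsin G, was at 345, 407 and 235 CPM in K3117 and at 536, 317 and 149 CPM in K3174. It fell in High (log2 -1.23 ± 0.24, adjusted p = 0.00368), a call that DESeq2 did not make (adjusted p = 0.0762), and without the NT library of K3174 its value was -0.63. Serpinb6b, the other one called lower, was at 3.52 CPM or less.

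Of 7 transcription factors known for granule genes, 4 were higher in High. Cebpe, which drives the step from promyelocyte to myelocyte and the secondary granule genes, was at 10.2, 57.5 and 153 CPM in K3117 and at 34.6, 116 and 235 CPM in K3174 (log2 3.30 ± 0.22, adjusted p = 2.6e-06). Gfi1, a repressor needed for neutrophil formation, rose by 2.04 ± 0.12 (adjusted p = 1.2e-06), and both were also called in Low. Spi1, which encodes PU.1, rose by 0.77 ± 0.12 (adjusted p = 0.000818). Runx1 was the weakest of the 4 (log2 0.42, adjusted p = 0.0404 by edgeR). The call was lost under library sizes alone (adjusted p = 0.0778), upper quartile factors (0.101), the filter of 5 CPM in 2 libraries (0.052) and without the leukemia term (0.185). It was also lost with most single libraries left out, and without the High library of K3174 the value of Runx1 was 0.27. Cebpa (log2 0.19), Myb (log2 0.25) and Cbfb (log2 -0.18) did not pass.

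Relatives of the peroxidase and of the proteases were mostly rare, with 7 of 15 tested. Epx, Cma1 (log2 1.46, adjusted p = 0.0148) and Mcpt8 (log2 0.91, adjusted p = 0.0329) were higher in High, the last 2 being mast cell and basophil proteases. Cma1 had 13 counts or fewer in each K3117 library. Mcpt8 was not called by edgeR with library sizes alone (adjusted p = 0.0519) or the filter of 5 CPM in 2 libraries (0.0543). Without the NT library of K3174 the value of Mcpt8 was log2 0.68. Without the High library of K3174 neither Cma1 (adjusted p = 0.116) nor Mcpt8 (log2 0.24, adjusted p = 0.821) was called. Myeloperoxidase carries heme, and of 8 heme synthesis genes 1 was higher in High, near the 10.0% of all genes tested. The 1 was Alas1, the rate-limiting enzyme of nonerythroid cells. It was at 165, 312 and 424 CPM in K3117 and at 192, 362 and 439 CPM in K3174, a rise of log2 1.28 ± 0.12 in High (adjusted p = 2.3e-05) and of 0.92 in Low (adjusted p = 0.00146). The other 7 did not pass in any label comparison, with log2 values between -0.16 and 0.37 in High.

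Profiles were compared as the root mean square distance between log2 CPM values over the 6 libraries, each gene centred on its own mean, among 9998 tested genes with a mean of at least 5 CPM. Nearest to Mpo was Elane, at 0.75, followed by Mogat2, Ltb4r1 and Prom1 at 0.78, 0.79 and 0.83. Nearest to Elane were Cebpe at 0.28, Rps6ka2 at 0.32, Col4a1 at 0.35 and Glt1d1 at 0.35. From Elane, Prss57 was at rank 7, and Mpo only at rank 47. The gene nearest to Prtn3 was Nkg7, at 0.10, and from Nkg7 Prtn3 was at rank 2. From Mpo, Ctsg and Serpinb1a were at ranks 1094 and 5638. All profiles share the 6 libraries and their label and leukemia differences, and the distances are descriptions.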

How the data were processed

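RNA was sequenced in read pairs of 150 bp from 6 libraries, 1 for each label in each leukemia. The values are the authors' own raw counts, whole numbers for each gene ID, and were taken unchanged. Per the submitters' processing notes, mm10 was the build and kallisto, STAR, DESeq2 and STAR-Fusion were among the tools, with no roles or versions. Which tool counted, with what annotation and whether by strand, is not given in the sources used here. Symbols, positions and exon lengths came from GENCODE vM21 (GRCm38, the assembly mm10 denotes) and matched 99.5% of 49585 IDs.

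Counts were fitted with edgeR 4.0.16 in R 4.3.3: expression filter (15812 genes), TMM factors of 0.973 to 1.04, label plus leukemia, quasi-likelihood F test with 2 residual and 9.38 prior degrees of freedom, and Benjamini-Hochberg adjustment over all genes tested with a threshold of 0.05. The common biological coefficient of variation was 12%. The SE is the log2 fold change divided by the root of F. Intervals cover the fitted spread only. Log2 CPM within a leukemia uses a prior count of 2. The fitting code was run on counts simulated without a difference between leukemias, so that run does not bear on the leukemia term.

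K numbers pair the libraries by their titles. Deviations from the label means correlated across genes at 0.57 (NT and Low), 0.44 (NT and High) and 0.64 (Low and High).

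All 8 genes are named in every comparison, from the lists the called genes with the smallest p in High against NT (at most 5 a list), and for Mpo and Elane the 4 nearest profiles. Neighbour genes and other counts were chosen for naming after their values were seen. The genes and lists were chosen with earlier results of these data known. Alternatives were other scalings, DESeq2 1.42.0, other filters, no leukemia term and each library left out.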

Additional observations from a re-analysis of the deposited data

Results flagged for a closer look

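Ctsg moved in opposite directions in the leukemias. From NT to High its log2 CPM changed by 0.62 in K3117 and by -0.29 in K3174, a difference of -0.91 (K3174 minus K3117). It rests on 1 library for each leukemia and label, and the difference was not tested.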

How the results depend on the processing

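Of 376 values of the 8 genes under alternative settings, 327 kept their direction and side of the threshold, 31 newly passed and 18 no longer passed, with none reversed among called values. Of the other named genes' values 1457 kept both, 65 newly passed, 161 no longer passed and 1 reversed: Lyz2 in Low against NT, at -0.42 without the NT library of K3174 (range over left-out libraries -0.42 to 0.71). Without the replicate block (the leukemia term), 493 genes were called in High against NT (2741 with it), 0 in Low against NT (528 with it) and 0 in High against Low (866 with it), and 0, 0 and 0 of the 8 genes. With every gene that had a count, 1071 genes were called in Low against NT and 1425 in High against Low, 7 of the 8 genes in the latter. With a filter of 5 CPM in 2 libraries, 568 were called in High against Low and 932 in K3174 against K3117 (1481 before). Leaving out 1 library gave 1927 to 4394 called genes in High against NT (4394 without the NT library of K3117), 144 to 1483 in Low against NT (144 without the Low library of K3174), 335 to 1982 in High against Low (335 without the Low library of K3117) and 829 to 2642 in K3174 against K3117 (829 without the Low library of K3117), and of the 8 genes 6 to 7, 5 to 7, 0 to 7 and 6. A label left with 1 library is assumed to vary like the others. The share of calls in High against NT that were higher was 57.8%, but 49.1% with library sizes alone and 43.9% with upper quartile factors, which put the median of all genes at -0.11. The cause of these changes was not tested. Of the 8 genes, Prss57 and Nkg7 had the fewest counts.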
